A study of Mus musculus with 6 samples.

Results

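Transcripts of 7 genes of the BCL2 family were followed in mouse fetal liver cells: the survival genes Bcl2, Bcl2l1, Bcl2l2 and Mcl1, and the effector genes Bax, Bak1 and Bok. The 7 were taken by symbol, mapped with GENCODE M21, from the 54232 gene IDs in each file, and each symbol matched 1 ID. The cells came from livers of C57/B6 embryos at E13.5 and were selected as negative for Ter-119, an antigen carried by maturing red cells. In the day 0 group, 3 untreated libraries were made from the purified cells. In the 30 h group, 3 libraries were made from cells cultured with erythropoietin (EPO), the hormone of red cell production, which received the solvent DMSO at 24 h and were collected 6 h later. Both groups are primary cells selected by absence of a marker, labelled as progenitor cells, and the labels do not say whether libraries of a group came from separate embryos, litters or cultures. The p-values therefore measure the spread between these libraries, which may be technical. Culture, EPO, DMSO and time differ together between the groups, so their parts in a difference cannot be told apart.

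Proteins of this family govern the outer membrane of mitochondria. When BAX or BAK assembles into pores there, cytochrome c escapes and the caspase cascade of apoptosis starts, while BCL2, BCL-XL (from Bcl2l1), BCL-W (from Bcl2l2) and MCL1 bind and restrain the pore formers and the BH3-only proteins that activate them. In red cell development BCL-XL is known as a survival factor of maturing erythroblasts, downstream of the erythropoietin receptor and GATA1, and MCL1 as one that early progenitors need.

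Library totals ranged from 19241780 to 29949173 counts. Levels are given as CPM, reads of a gene per 1e+06 reads of a library total scaled by TMM (the trimmed mean of M-values), and a mean ± SD is over the 3 libraries of a group. A gene said to have the highest CPM of a list has the highest mean over all 6 libraries, without regard to length, and need not be highest in each group. Differences are edgeR quasi-likelihood estimates adjusted by Benjamini-Hochberg over 16150 tested genes. All 12 erythroid markers listed rose and were detected in every day 0 library. All 10 hepatoblast markers fell, with a summed level of 14296 to 16263 CPM at day 0 and 817 to 2355 CPM at 30 h, as did 7 of 7 endothelial and 6 of 7 mesenchymal markers. In these mixed samples, fewer cells of a type and less RNA per cell cannot be told apart. Counts of 30 h replicate 3 stood apart from those of 30 h replicates 1 and 2, and some values, not all, are also given without it.

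All 7 genes passed the filter on low counts and the test. Bcl2l1, Bcl2l2, Mcl1 and Bax were higher at 30 h, and Bcl2, Bak1 and Bok were lower. The share of all tested genes called was 74.5%, with 34.4% higher and 40.1% lower, so a count of 7 calls among 7 genes is close to the background. The groups did not overlap for any of the 7, as for 79.7% of all genes. The change was at least 2-fold for 5 of the 7, against 48.8% of all genes.

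**Figure D1:**
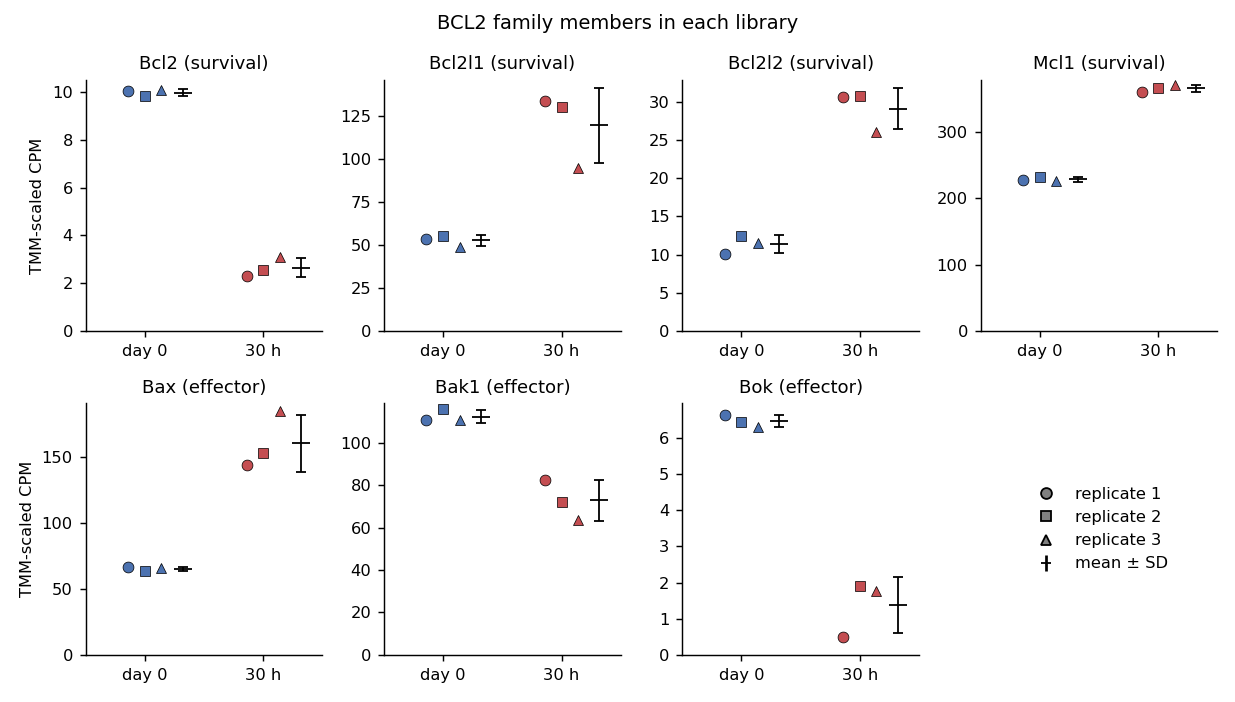
Level of each of the 7 genes in each library, in TMM-scaled CPM on linear axes from 0, with day 0 in blue, 30 h in red, a symbol per replicate and black bars for the mean ± SD (n = 3). Each gene separates the groups, and at 30 h the replicates spread least for Mcl1 (361 to 372 CPM) and most, relative to the mean, for Bok (0.493 to 1.91 CPM).

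Of the survival genes, Mcl1 (ENSMUSG00000038612, chr3:95658788-95663176 in mm10) encodes a short-lived protein whose amount is strongly set by translation, ubiquitination and degradation, which these counts do not measure. It stood at 228, 232 and 226 CPM in day 0 replicates 1, 2 and 3, and at 361, 366 and 372 CPM in the 30 h replicates. The 30 h libraries lay close together and above every day 0 library. The mean went from 229 ± 3.11 to 366 ± 5.38 CPM, a 1.60-fold rise (log2 change 0.68, SE 0.084, edgeR adjusted p = 0.000150). The rise depended on scaling: the median log2 change over all genes was -0.09 with TMM and -0.58 with library totals only, where that of Mcl1 was 0.19 (edgeR adjusted p = 0.0716). Tested against a change of 1.5-fold, the rise of Mcl1 did not pass (edgeR adjusted p = 0.0880).

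Bcl2l1 (ENSMUSG00000007659, chr2:152780668-152831728) encodes BCL-XL, the long form, and by alternative splicing the short form BCL-XS, which counts per gene do not separate. Its levels were 53.7, 55.4 and 49.1 CPM at day 0, and 134, 131 and 94.8 CPM at 30 h. The third 30 h library was the lowest of its group, but still above each day 0 library. The mean rose from 52.8 ± 3.24 to 120 ± 21.7 CPM (log2 change 1.18, SE 0.15, edgeR adjusted p = 0.000165). Without 30 h replicate 3 the log2 change was 1.33.

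Bcl2l2 (ENSMUSG00000089682, chr14:54883377-54888234) encodes BCL-W, a protein close to BCL-XL in structure and best known from sperm formation and neurons. Its levels were 10.1, 12.5 and 11.5 CPM at day 0 and 30.6, 30.7 and 26 CPM at 30 h. Every 30 h library was above every day 0 library. The log2 change was 1.35 (SE 0.13, edgeR adjusted p = 3.68e-05), a 2.56-fold rise. Of its exonic bases, 13.3% are also annotated to Gm20521 on the same strand, which had 0 counts in all 6 libraries. The sources used here do not give how reads in shared bases were counted.

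Bcl2 (ENSMUSG00000057329, chr1:106538178-106714274), the founding member of the family and a survival factor of lymphoid and stem cells, went the other way. Its levels were 10.04, 9.81 and 10.1 CPM at day 0, and 2.32, 2.56 and 3.08 CPM at 30 h. The counts behind them were 332 to 355 per library in the first group and 43 to 49 in the second. All the 30 h libraries were below those of day 0. Bcl2 was 3.77-fold lower (log2 change -1.92, SE 0.15, edgeR adjusted p = 1.35e-05). This gene fell under each of the 17 alternatives tried, with log2 changes from -2.41 to -1.76. The antisense gene D630008O14Rik overlaps 6.09% of the exonic bases of Bcl2 and had 0 counts in all 6 libraries.

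Among the effectors, Bax (ENSMUSG00000003873, chr7:45461697-45466898) rose. Its product sits in the cytosol of healthy cells and moves to mitochondria when activated. Its levels were 66.5, 63.4 and 65.7 CPM at day 0 and 144, 153 and 185 CPM at 30 h. The third 30 h library was the highest for Bax and the lowest for Bcl2l1. The mean went from 65.2 ± 1.65 to 160 ± 21.4 CPM, a 2.46-fold rise (log2 change 1.30, SE 0.12, edgeR adjusted p = 3.01e-05). Without 30 h replicate 3 the log2 change of Bax was 1.19. With each library's trend on GC content removed, it was 2.05. At 63.6%, its longest transcript has the highest GC content of the 7. Of its exonic bases, 12.2% are shared with Gm45808 on the same strand, which had 0 counts in every library.

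Bak1 (ENSMUSG00000057789, chr17:27019810-27029009) encodes BAK, which is held in the outer mitochondrial membrane also in healthy cells. It had 111, 116 and 111 CPM at day 0 and 82.6, 72.2 and 63.5 CPM at 30 h. All the 30 h libraries lay below those of day 0. It was 1.54-fold lower (log2 change -0.63, SE 0.12, edgeR adjusted p = 0.00145). Without 30 h replicate 3 the log2 change of Bak1 was -0.53. The call was lost with the GC trend removed (log2 change -0.25, edgeR adjusted p = 0.0714) and in the test against a 1.5-fold change (edgeR adjusted p = 0.254). Annotated entries of Ggnbp1 on the opposite strand overlap 7.35% and 18.2% of the exonic bases of Bak1. Ggnbp1 had 14 to 41 counts per library.

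Bok (ENSMUSG00000026278, chr1:93685660-93695764) encodes an effector that, in work on mammalian cells, is controlled mainly by degradation at the endoplasmic reticulum and less by the survival proteins. Its levels were 6.64, 6.44 and 6.31 CPM at day 0, from 208 to 235 counts, and 0.493, 1.91 and 1.76 CPM at 30 h, from 10, 32 and 28 counts. The first 30 h library was the lowest of all. Bok was 4.79-fold lower (log2 change -2.26, SE 0.35, edgeR adjusted p = 0.000595). The log2 change was -1.75 when 30 h replicate 1 was left out, and -1.64 after removal of the GC trend.

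The summed level of the 10 hepatoblast markers was also lowest in 30 h replicate 1, at 817 CPM, against 2165 and 2355 CPM in replicates 2 and 3. No hepatoblast marker was at 0 in any library, and Afp, the one with the highest CPM, had 579, 1658 and 1772 CPM in the 30 h libraries. The 7 mesenchymal markers summed to 1472 to 1879 CPM at day 0 and to 23.8, 56.5 and 44.4 CPM at 30 h, with Col1a1 highest in the mean over all libraries. At 30 h Des, which did not pass the test, was above Col1a1 in each library, at 6.22, 19.1 and 12.8 CPM against 5.28, 12.6 and 8.63 CPM. The 7 endothelial markers went from 172 to 199 CPM at day 0 to 30.4 to 38.4 CPM at 30 h. Pecam1 made up 24.4 to 31.5 CPM of the latter, Cdh5 was at most 0.298 CPM, and Stab2 was at 0 in the first 30 h library and Emcn was at 0 in the second. The 6 B lymphoid markers, of which 4 fell and 2 did not pass, summed to 25.3 to 27.1 CPM at day 0. At 30 h they summed to 12.0, 15.4 and 15.7 CPM. The 8 macrophage markers (3 rose, 2 fell) summed to 208 to 230 CPM at day 0 and to 152, 231 and 190 CPM at 30 h. For the 6 megakaryocyte markers (1 rose, 2 fell) the sums were 493 to 589 CPM, then 544, 821 and 944 CPM. The part of any of these cell types in the change of Bok or of Bcl2 was not tested.

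**Figure D2:**
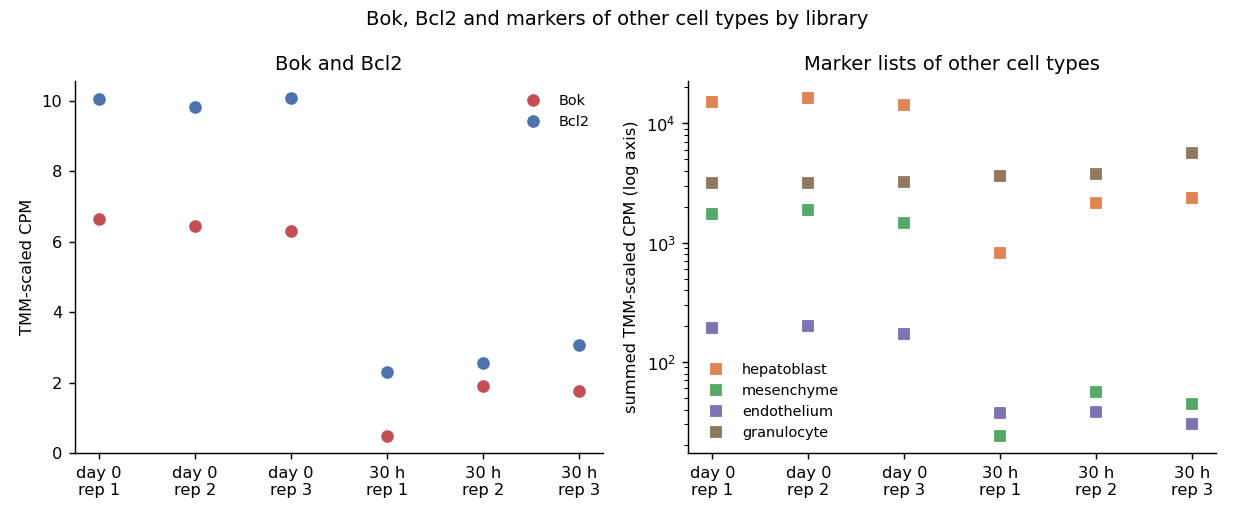
Bok and Bcl2 in each library (left, TMM-scaled CPM, linear axis). On the right, the summed level of the hepatoblast, mesenchyme, endothelium and granulocyte marker lists in the same libraries (TMM-scaled CPM, log axis). In 30 h replicate 1, Bok (0.493 CPM), the hepatoblast sum (817 CPM) and the mesenchyme sum (23.8 CPM) are lowest of the 6 libraries. The granulocyte sum there (3637 CPM) is the lowest of the 30 h group but above its day 0 range (3136 to 3241 CPM). The endothelium sum is lowest in 30 h replicate 3 (30.4 CPM).

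Compared per length, Mcl1 had the highest level at day 0, with 66.9 ± 0.909 CPM per kb of annotated exon, above 95.6% of the tested genes. Bak1 followed at 46.7 ± 1.29 and Bax at 41.4 ± 1.04 CPM per kb. Bcl2l1 had 11.5 ± 0.706, Bok 3.51 ± 0.0909, Bcl2l2 2.55 ± 0.264 and Bcl2 1.09 ± 0.0155 CPM per kb. Neighbours in this order differed by more than their SDs. At 30 h Mcl1, with 107 ± 1.58, and Bax, with 102 ± 13.6 CPM per kb, did not differ beyond their spread. Bak1 (30.2 ± 3.98) and Bcl2l1 (26.1 ± 4.74) overlapped between libraries, but within each 30 h library Bak1 was above Bcl2l1. Bcl2l2 came next with 6.52 ± 0.601, then Bok with 0.754 ± 0.423 and Bcl2 with 0.290 ± 0.0427 CPM per kb, which overlapped between libraries. The level of Bcl2 exceeded that of 30.8% of the tested genes at day 0 and of 19.1% at 30 h. With the length of the longest transcript in place of all exons, Bax came before Bak1 at day 0, and before Mcl1 at 30 h. With the longest transcript or the coding length, Bcl2l1 came before Bak1 at 30 h. With the coding length Bcl2 came before Bok in both groups, and Bcl2l2 came before Bok also at day 0.

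**Figure D3:**
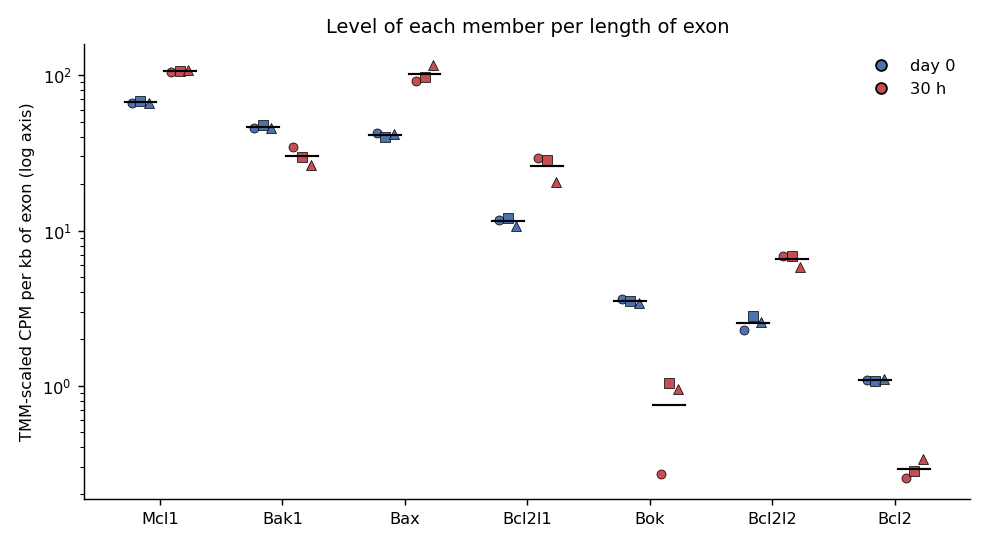
Level per length of each of the 7 genes (TMM-scaled CPM per kb of annotated exon, log axis), ordered by day 0 mean, with day 0 in blue, 30 h in red, a symbol per replicate and a bar at the mean of 3. Bax moves up from 41.4 to level with Mcl1 (102 and 107 at 30 h), and Bcl2 stays the lowest at 1.09 and 0.290.

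Ratios between genes of the same library do not depend on library scaling. The fold change of a ratio of 2 genes does not depend on length, while shares and ratios of sums do. The level of Bax per Bak1 (both per kb) was 0.919, 0.835 and 0.908 at day 0 and 2.66, 3.23 and 4.44 at 30 h, so the ratio was higher in each 30 h library than in any of day 0. Which of the 2 genes stood higher at day 0 depended on the length used: Bax held 53.5% of the effector sum and Bak1 42.5% with the longest transcript, against 37.4% and 59.2% with the coding length. Bax made up 45.2% ± 1.24 of the summed effector level at day 0 and 76.5% ± 4.32 at 30 h. Bok made up 3.84% ± 0.0874 and 0.562% ± 0.311. Within the survival genes, Bcl2l1 per Bcl2 was 10.7, 11.3 and 9.74 at day 0 and 115, 102 and 61.3 at 30 h. Bcl2l1 went from 14% ± 0.602 to 18.6% ± 2.92 of the summed survival level, but in 30 h replicate 3 it was 15.2%, close to the day 0 libraries. Mcl1 was the largest share throughout, 81.6% ± 0.570 at day 0 and 76.5% ± 3.19 at 30 h.

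Ratios across the roles depended on the effector. Bcl2l1 per Bak1 was 0.255, 0.251 and 0.233 at day 0 and 0.851, 0.949 and 0.783 at 30 h, higher in each 30 h library than in any of day 0. Bcl2l1 per Bax was 0.278, 0.300 and 0.257 at day 0 and 0.320, 0.293 and 0.176 at 30 h, and these groups overlapped. Mcl1 per Bax was 1.58, 1.69 and 1.58 at day 0 and 1.16, 1.10 and 0.928 at 30 h, lower in each 30 h library. The summed survival level per summed effector level was 0.893, 0.912 and 0.883 at day 0 and 1.127, 1.115 and 0.938 at 30 h. With the longest transcript as the length, the last of these became 0.781, below every day 0 value, and the groups overlapped. With the coding length the groups did not overlap, at 1.12, 1.14 and 1.10 at day 0 and 1.60, 1.60 and 1.32 at 30 h. These ratios are descriptions with no test, and they were not computed with the GC trend removed. That setting moved the genes unequally. The log2 change of Bax went from 1.30 to 2.05 and that of Bak1 from -0.63 to -0.25. It was 0.65 for Mcl1 and 1.47 for Bcl2l1. The log2 change of Bcl2l1 stayed above that of Bak1, so Bcl2l1 per Bak1 was still higher at 30 h under that setting. Those of Mcl1 and Bcl2l1 stayed below that of Bax, so their ratios to Bax were lower at 30 h. The direction of the summed ratio there is not given, and its values above hold only without removal of the GC trend.

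**Figure D4:**
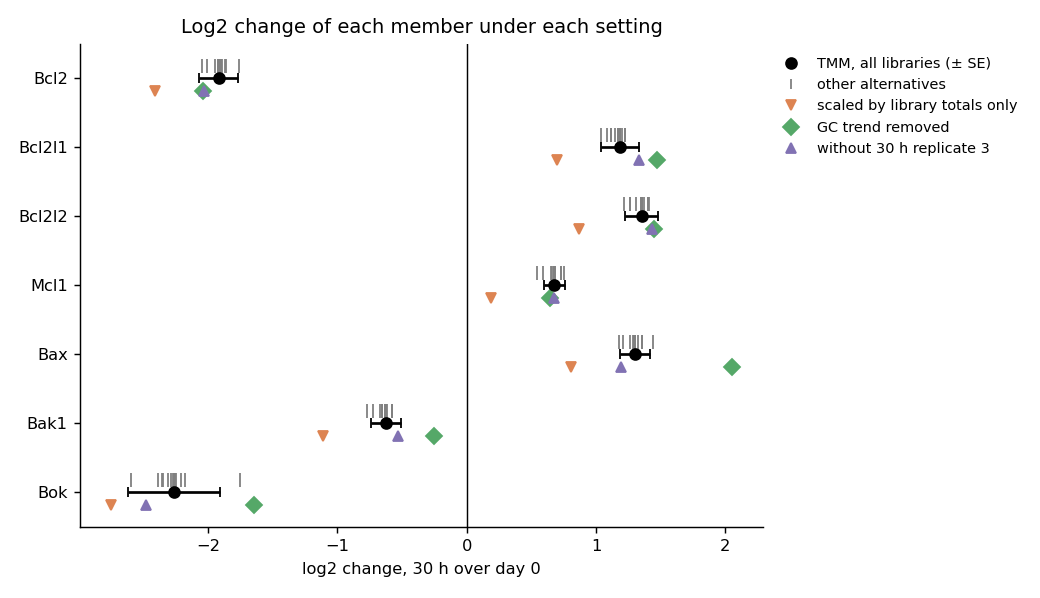
Log2 change of each of the 7 genes, 30 h over day 0, with TMM and all 6 libraries (black, ± SE), and under the 17 alternatives, of which scaling by library totals (orange), removal of the GC trend (green) and leaving out 30 h replicate 3 (purple) are marked. The sign of each gene is the same under every alternative, the value nearest 0 is 0.19 for Mcl1 with totals only, and Bax moves most with the GC trend removed, to 2.05.

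The promoters of the 7 genes were read from RefSeq (GRCm38.p6, the assembly of mm10) as windows from 250 bases before a start to 50 after it, and all 7 genes matched, with 9 windows. Bcl2l1 has 3 annotated starts, and counts per gene do not show which was used. Motifs were searched on both strands: a GATA hexamer (spelled AGATAA or AGATAG or TGATAA or TGATAG), the STAT motif (TTCNNNGAA), and the E-box (CACGTG). No matches overlapped. Of all 32851 windows, 29.8% hold a GATA hexamer, 8.3% the STAT motif and 7.15% the E-box. GATA hexamers were found in 1 of the 9 windows, the most downstream start of Bcl2l1 (chr2:152828440-152828739, minus strand), at -41 to -36 and at 36 to 41 counted from the start. E-boxes were found in 1 window, that of Bax (chr7:45466849-45467148, minus strand), at -9 to -4 and at 36 to 41. No STAT motif was in any of the 9. The 2 windows with matches are shown with that of Bcl2 (chr1:106714241-106714540, minus strand), the survival gene that fell, which holds none of these letters and has 76.0% GC. Matches are in capitals, and a match describes letters, not a bound site.
Bcl2l1, downstream start: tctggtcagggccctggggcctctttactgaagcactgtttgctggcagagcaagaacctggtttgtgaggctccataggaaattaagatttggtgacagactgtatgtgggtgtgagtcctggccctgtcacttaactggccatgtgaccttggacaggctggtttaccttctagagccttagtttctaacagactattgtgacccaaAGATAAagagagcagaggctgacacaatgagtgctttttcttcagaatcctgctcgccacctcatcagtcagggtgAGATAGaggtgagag
Bax: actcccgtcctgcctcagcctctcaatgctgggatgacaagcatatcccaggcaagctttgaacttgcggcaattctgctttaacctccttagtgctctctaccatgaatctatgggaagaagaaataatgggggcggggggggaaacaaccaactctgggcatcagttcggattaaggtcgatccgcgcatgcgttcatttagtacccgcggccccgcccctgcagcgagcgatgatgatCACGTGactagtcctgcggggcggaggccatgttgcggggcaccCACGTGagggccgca
Bcl2: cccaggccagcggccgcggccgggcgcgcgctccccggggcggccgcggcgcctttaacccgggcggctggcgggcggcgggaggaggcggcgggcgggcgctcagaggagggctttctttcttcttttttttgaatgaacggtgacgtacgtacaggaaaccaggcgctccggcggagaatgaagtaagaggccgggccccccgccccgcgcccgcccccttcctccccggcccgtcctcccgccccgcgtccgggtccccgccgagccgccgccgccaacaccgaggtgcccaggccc

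The transcripts whose profiles over the 6 libraries lay nearest to each gene were found by the root mean square difference of log2 CPM, each centred on its own mean, among protein-coding genes of at least 10 CPM. Those near Bcl2 included Icam2 (0.049) and Rcl1 (0.076). For Bcl2l1 they were Trim26 (0.042), Rad54b (0.059) and Hdac5 (0.061), and for Bcl2l2 Nfatc2ip (0.055), Ccnt2 (0.069) and Lmbr1l (0.071). Mcl1 was nearest to Ezh2 (0.019), Clcn4 (0.023) and Lamp1 (0.028). For Bax the nearest were 1110012L19Rik (0.023), Cox6a1 (0.030) and Brcc3 (0.031), and for Bak1 Ints10 (0.025), Klf16 (0.027) and Pphln1 (0.028). Bok had no gene as near, with Sparc (0.10), Myl4 (0.10) and Trf (0.11), the last being among the hepatoblast markers. Among the 7 genes themselves the nearest pair was Bcl2l1 and Bcl2l2 (0.16) and the farthest Bcl2l2 and Bok (1.96). With only 6 libraries in 2 groups, these distances mostly follow the difference between the groups.

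Of 8 other multidomain relatives listed, 6 passed the filter, of which 4 were called higher and 2 lower. Of the 4, 3 are Bcl2a1 copies that passed the filter through their 30 h counts, so no weight is put on this count. With a filter of at least 1 CPM on the mean over all libraries, 2 relatives were tested, 1 higher and 1 lower. Bcl2l13, a mitochondrial relative that acts as a mitophagy receptor, had 182, 174 and 188 CPM at day 0 and 391, 341 and 281 CPM at 30 h (log2 change 0.89, SE 0.13, edgeR adjusted p = 0.000405). Bcl2l12 (log2 change -0.60, edgeR adjusted p = 0.00427) and Bcl2l14 (log2 change -1.20, edgeR adjusted p = 0.0328) were lower. The call of Bcl2l12 was lost after removal of the GC trend (edgeR adjusted p = 0.0886). Leaving out day 0 replicate 1, day 0 replicate 3 or 30 h replicate 1 ended the call of Bcl2l14 (edgeR adjusted p = 0.101, 0.0756 and 0.113), as did the test against a 1.5-fold change for both genes (edgeR adjusted p = 0.330 and 0.0881). Bcl2l15 had 1 to 7 counts per library and Bcl2l10 was at 0 in all 6, and neither was tested.

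The Bcl2a1 genes, survival genes of granulocytes and activated lymphocytes, are near-identical copies, so reads cannot be assigned to each with certainty. Summed over Bcl2a1a, Bcl2a1b and Bcl2a1d, the day 0 libraries held 3, 5 and 4 counts, against 54, 46 and 83 in the 30 h libraries. Day 0 held 0 to 3 counts per gene and library, so these genes passed the filter through the 30 h group, and the counts are given as a description with no fold or test. The 6 granulocyte markers summed to 3136 to 3241 CPM at day 0 and to 3637, 3768 and 5658 CPM at 30 h, highest in the third library, as were the Bcl2a1 counts. Of these markers 2 rose, 2 fell and 2 did not pass, and Mpo, with the highest CPM, fell from 1910 to 546 CPM. At 30 h it was below both genes that rose, S100a8 (284 to 1288 CPM) and S100a9 (304 to 1913 CPM), which are named here after their values were seen. Their part in the Bcl2a1 values was not tested.

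Of the BH3-only and BNIP3 genes, which act on the survival proteins and effectors, 6 rose, 2 fell and 1 did not pass of 9 tested among 10 listed. Of all tested genes, 34.4% were higher and 40.1% lower. The median log2 change of the list was 1.68 against -0.09 over all genes. Bnip3, a mitophagy receptor, had the largest rise (9.39 ± 0.501 to 194 ± 44.8 CPM), Bmf the largest fall (13.8 ± 1.17 to 7.72 ± 0.846 CPM), and Bnip3l, which clears mitochondria from reticulocytes, had the highest CPM (91.2 ± 5.51 to 309 ± 62.0 CPM).

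Downstream of the pore, genes of mitochondrial release and the apoptosome had a median log2 change of -0.18, against -0.09 over all genes. Of 9 tested, 1 rose, 3 fell and 5 did not pass, beside 34.4% higher and 40.1% lower among all tested genes. Diablo, which releases caspases from their inhibitors, rose from 8.87 ± 0.450 to 18.4 ± 2.41 CPM. Leaving out 30 h replicate 3 or removing the GC trend gave 3 risen genes, DESeq2 gave 2, and 5 fell with scaling by totals or upper quartile.

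Among 12 membrane partners of the family, which include the VDAC channels, IP3 receptors and mitochondrial fusion proteins, 2 rose, 6 fell and 4 did not pass. Over all tested genes the shares were 34.4% higher and 40.1% lower. The median log2 change of the partners was -0.44, against -0.09 over all genes. Bag1, a chaperone cofactor found by its binding to BCL2, rose from 188 ± 1.89 to 366 ± 44.0 CPM, and Itpr1, a calcium channel of the endoplasmic reticulum, fell from 30.3 ± 3.10 to 11.5 ± 3.02 CPM. Tmbim6, or BAX inhibitor 1, had the highest CPM, 484 ± 21.0 and 486 ± 18.1 (log2 change 0.0052, SE 0.090, edgeR adjusted p = 0.962). Under library totals the log2 change of Tmbim6 was -0.48 (edgeR adjusted p = 0.00180). Of the partners, 4 rose when 30 h replicate 3 was left out, 1 rose with library totals or the GC trend removed, and 2 fell in the test against a 1.5-fold change.

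In the list on turnover and translation of MCL1, 4 rose, none fell and 5 did not pass of 9 tested. Among all tested genes 34.4% were higher and 40.1% lower. The list had a median log2 change of 0.34, against -0.09 over all genes. Rictor, a subunit of the mTORC2 kinase complex, had the largest rise (16.8 ± 0.396 to 42.7 ± 2.85 CPM). Huwe1, a ubiquitin ligase of MCL1, had the highest CPM over all libraries, with 220, 240 and 263 CPM at day 0 and 204, 154 and 82.2 CPM at 30 h. At 30 h its mean (147 CPM) was close to that of Eif4e (149 CPM). Huwe1 missed the threshold in edgeR (log2 change -0.71, adjusted p = 0.0513, 1 gene lower at an unadjusted p below 0.05) but passed in DESeq2 (adjusted p = 0.0213) and limma-trend (adjusted p = 0.0415). Its log2 change was negative under every alternative, -0.42 without 30 h replicate 3, with adjusted p from 0.00440 to 0.247. From this list 1 to 3 genes fell under 10 of the 17 alternatives, while 2 rose with library totals or in the test against a 1.5-fold change and 6 rose without 30 h replicate 3.

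Of 12 genes upstream of the 7, 5 rose and 7 fell, where 34.4% of all tested genes were higher and 40.1% lower. Their median log2 change was -0.87, against -0.09 over all genes. Pim1, a survival kinase induced by STAT5, had the largest rise (40.5 ± 2.77 to 508 ± 114 CPM), Kit, the receptor of stem cell factor, the largest fall (218 ± 12.6 to 38.4 ± 10.9 CPM). Gata1, an activator of Bcl2l1 in erythroid cells, rose from 200 ± 5.14 to 504 ± 53.0 CPM. Stat5a and Stat5b were chosen after their values were seen, because STAT5 also acts on Bcl2l1. Stat5a fell from 65.5 ± 2.10 to 19.5 ± 3.90 CPM (log2 change -1.74, edgeR adjusted p = 2.56e-05). Stat5b fell from 99.9 ± 3.15 to 53.3 ± 14.8 CPM (log2 change -0.90, edgeR adjusted p = 0.00288). Epor (log2 change 1.19) and Jak2 (0.86) of the same list, also named after their values were seen, rose.

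**Figure D5:**
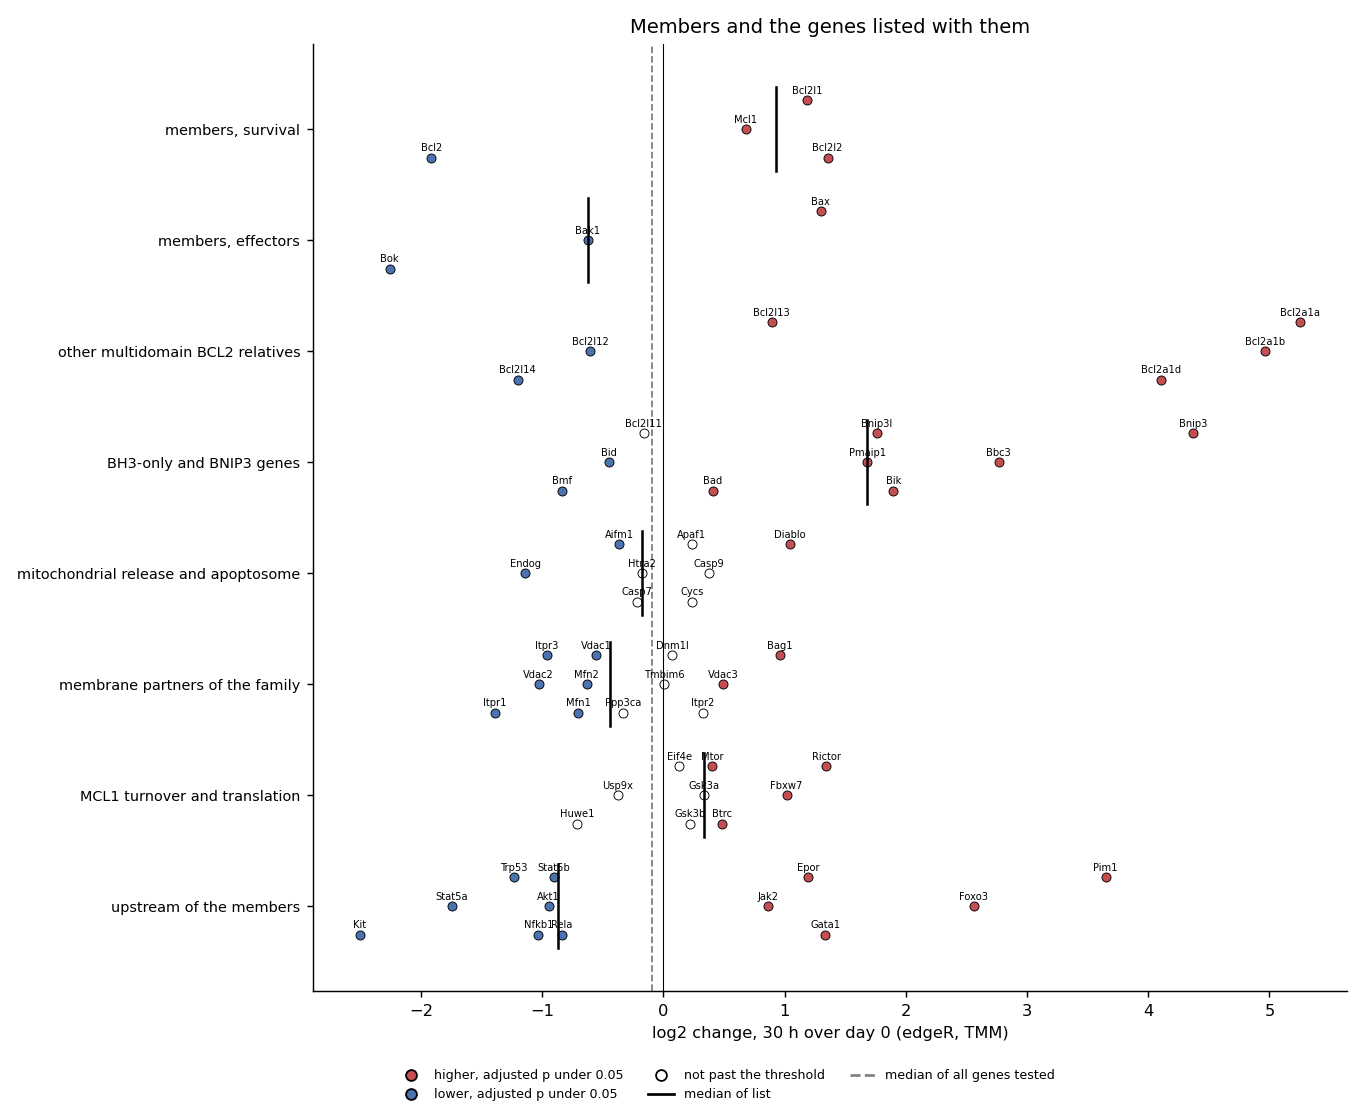
Log2 change, 30 h over day 0, of tested genes of the 8 lists, in red where higher and blue where lower at adjusted p under 0.05 and open where not past it, with black bars at the median of each list except the other multidomain relatives, and a dashed line at that of all tested genes (-0.09). The survival genes split between Bcl2 and the other members, the effectors between Bax and the others, and the values of the Bcl2a1 genes rest on 0 to 3 counts per gene in each day 0 library.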

How the data were processed

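Gene counts were analysed for 6 libraries, 3 at day 0 and 3 at 30 h, grouped by the labels' titles. The authors deposited raw counts by gene as whole numbers, a file for each library. Tools named in the submitters' processing notes are STAR, cutadapt 1.13, DESeq2 and HTSeq 0.6.1p1, with build mm10 and no settings, and the sources used here do not give strand use. Of 54232 gene IDs, 54165 were found in GENCODE M21. Genes kept by edgeR's filterByExpr (16150) were scaled by TMM and tested by the edgeR quasi-likelihood F test with robust fitting (edgeR 4.0.16, limma 3.58.1, DESeq2 1.42.0, R 4.3.3), calling genes at a Benjamini-Hochberg adjusted p under 0.05. The F statistic gave the standard errors. Common dispersion corresponded to a biological coefficient of variation of 14.2% (5.27% for the day 0 libraries alone, 20.2% for the others), so the 30 h group limits the precision. Library totals were 19241780 to 29949173 counts. Log2 CPM for profile distances used a prior count of 2. Lengths are the union of a gene's annotated exons. Replicates differed by more than sampling noise (chi-square per degree of freedom 4.02 to 88.6), and 30 h replicate 3 differed most from replicates 1 and 2 (88.6 and 48.8, against 11.0 between those 2).

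The 7 genes, the related lists and the marker lists were chosen with earlier results of these data known. Named genes are the 7, the other multidomain relatives with a count, and in each other list the largest rise, the largest fall and the gene of highest mean CPM over the 6 libraries. In the marker lists they are the gene of highest CPM, and for likeness the 3 nearest profiles per gene. A gene named by this rule is not reported here. Alternatives were 4 other scalings, 2 other filters, DESeq2, limma-trend, a replicate block, a minimum change of 1.5-fold as the null, removal of each library's trend on the GC content of the longest transcript (a spline with 5 degrees of freedom), each library left out, and 2 other lengths. With no protein sequences used here, proteins are not shown.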

Additional observations from a re-analysis of the deposited data

How the results depend on the processing

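The 7 genes kept their direction under all 17 alternatives, and Bcl2, Bcl2l1, Bcl2l2, Bax and Bok also their side of the threshold. With library totals only, the log2 change of Mcl1 was 0.19, and 3601 genes were higher over the whole table, against 5553. In the test against a 1.5-fold change Mcl1 (0.68) and Bak1 (-0.63) were no longer called, and 12 related genes were lower, against 20. With the GC trend removed Bak1 stood at -0.25. The cause was not tested. Library totals moved the share of higher genes among the calls from 46.1% to 29.1%.

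Shares per length moved with the length used. With the longest transcript and the coding length, Bcl2l1 held 22.4% and 22.2% of the survival sum at day 0 and 28.7% and 28.7% at 30 h, and Mcl1 72.9% and 67.8%, then 66.4% and 62.2%. Bax held 53.5% and 37.4% of the effector sum at day 0 and 82.1% and 70.0% at 30 h, and Bak1 42.5% and 59.2%, then 17.4% and 29.4%. The direction from day 0 to 30 h was the same with each length.

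Among named genes that are no members, Tmbim6 changed sign with library totals (-0.48), upper quartile (-0.13), no filter (-0.088) and between the libraries left out (from -0.046 to 0.0501). Csf1r, the macrophage marker of highest mean CPM over all libraries, changed sign with DESeq2 size factors (0.020), DESeq2 (0.019), the GC trend removed (0.16) and between the libraries left out (from -0.23 to 0.12). Neither was called with TMM and all 6 libraries.

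The labels do not say that the replicate numbers pair the libraries. Same-numbered libraries had correlations of deviations from their group means of -0.11, 0.11 and -0.029. Those with different numbers had -0.11 to 0.14. No sign of pairing was seen, but with 3 libraries per group these values cannot exclude it. In the fit with a replicate block, 5254 genes were higher and 6277 lower, the log2 change of Mcl1 was 0.68 and that of Bak1 -0.63, and no call among the 7 was lost, but that of Bcl2l14 was (log2 change -1.19, edgeR adjusted p = 0.0675). Depth limits Bok at 30 h, with 10 to 32 counts per library, and Bcl2, with 43 to 49.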
